A study of Homo sapiens with 32 samples.

Results

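The FOXP genes FOXP1, FOXP2, FOXP3 and FOXP4 were chosen by name, as 4 of the 28278 gene symbols counted in the clone and isogenic libraries and as 4 of the 60199 Ensembl genes listed in the knockdown libraries. FOXP2 was included because it was high in STAG2 KO cells, so its values in that contrast are given as a description and without a test. The measurement was RNA-seq of total RNA in 32 libraries of Ewing sarcoma cell lines, and the study compared cells with and without STAG2, the cohesin subunit that is often lost in this tumour, with cells lacking its paralog STAG1 or a subunit of the Polycomb complex PRC2. The A673 libraries came in 3 experiments of edited clones and 1 experiment of siRNA, and the other lines, SK-N-MC and A4573, had 1 library per arm.

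In each clone experiment the controls were the unedited parental A673 line (genotype WT, 1 library) and the WT clone (genotype iCas9), which carries an inducible Cas9 and from which the KO clones were made. Experiment 1 held 2 WT clone libraries, 1 parental library and 2 STAG2 KO libraries (iCas9+STAG2ko). Experiment 2 held 2 WT clone libraries, 1 parental library, and 3 libraries each of STAG2 KO, EZH2 KO and SUZ12 KO. Experiment 3 held 1 WT clone library, 1 parental library and 3 STAG1 KO libraries. Experiment 4 held 3 A673 libraries treated with an siRNA against STAG2 (siSTAG2) and 3 control libraries (siC). The controls of SK-N-MC and A4573 were both listed as iCas9. SK-N-MC was compared with its STAG2 KO, and A4573, which lacks STAG2, with cells in which STAG2 was restored (STAG2 KI). The labels name 1 clone for each KO library. The numbers 5 and 24 used below for STAG2 KO of experiment 1, and those of the STAG1 KO libraries, are column numbers and not the labelled clone numbers, so which clone each library is was not known. Nor was it known whether any STAG2 KO clone of experiment 1 was sequenced again in experiment 2. The p-values measure the spread between these clones and repeat libraries. Totals were 15734628 to 20663679 counts per A673 clone or parental library, 29322507 to 32261248 in the other lines and 6852340 to 8184632 reads in the knockdown.

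FOXP proteins are forkhead transcription factors that act mostly as repressors and bind DNA as dimers, FOXP1, FOXP2 and FOXP4 with themselves or with each other through a leucine zipper. FOXP1 is known from B cells, lung, heart and brain, FOXP2 from the developing brain and lung and from inherited speech disorder, FOXP3 as the defining factor of regulatory T cells, and FOXP4 from lung, gut and brain. EZH2 is the methyltransferase and SUZ12 a core subunit of PRC2, which places H3K27me3, a mark of repressed genes found mainly at CpG-rich promoters.

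In GENCODE 44 on GRCh38, FOXP2 (ENSG00000128573) lies on the plus strand at chr7:114086327-114693772 and FOXP4 (ENSG00000137166) on the plus strand at chr6:41546381-41602384. FOXP1 (ENSG00000114861) lies on the minus strand at chr3:70954693-71583978 and FOXP3 (ENSG00000049768) on the minus strand at chrX:49250438-49264800. The start windows of the 3 expressed genes are printed because PRC2 is known for CpG-rich starts, and the knockouts of its subunits are compared below. Each window holds 250 bases before and 50 after the start, read 5′ to 3′ on the gene's strand, and capitals mark every CG dinucleotide, the motif CG being the same on both strands. FOXP2 is shown both at the GENCODE start of the gene (chr7:114086077-114086376) and at a RefSeq start inside the gene (chr7:114414565-114414864). The other windows are the outermost RefSeq starts of FOXP1 (chr3:71583679-71583978) and FOXP4 (chr6:41546131-41546430).
FOXP2, GENCODE start: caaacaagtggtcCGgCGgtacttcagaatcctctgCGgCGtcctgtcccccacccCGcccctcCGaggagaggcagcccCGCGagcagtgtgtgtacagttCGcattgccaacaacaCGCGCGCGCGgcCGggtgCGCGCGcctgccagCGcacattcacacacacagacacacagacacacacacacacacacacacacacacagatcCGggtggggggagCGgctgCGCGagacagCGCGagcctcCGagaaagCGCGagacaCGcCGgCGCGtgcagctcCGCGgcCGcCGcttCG
FOXP2, RefSeq start: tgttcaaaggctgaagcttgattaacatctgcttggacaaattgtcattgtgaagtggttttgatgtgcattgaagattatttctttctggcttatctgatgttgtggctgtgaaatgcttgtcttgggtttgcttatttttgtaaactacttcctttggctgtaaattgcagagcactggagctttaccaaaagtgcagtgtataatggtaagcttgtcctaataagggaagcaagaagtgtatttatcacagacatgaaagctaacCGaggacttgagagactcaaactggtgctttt
FOXP1, RefSeq start: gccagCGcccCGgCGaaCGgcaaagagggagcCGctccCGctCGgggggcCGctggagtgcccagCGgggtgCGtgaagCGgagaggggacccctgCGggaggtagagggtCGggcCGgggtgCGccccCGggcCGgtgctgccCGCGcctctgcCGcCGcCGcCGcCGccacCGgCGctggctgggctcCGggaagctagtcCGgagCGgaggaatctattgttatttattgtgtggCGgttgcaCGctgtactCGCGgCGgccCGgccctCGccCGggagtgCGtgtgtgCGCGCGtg
FOXP4, RefSeq start: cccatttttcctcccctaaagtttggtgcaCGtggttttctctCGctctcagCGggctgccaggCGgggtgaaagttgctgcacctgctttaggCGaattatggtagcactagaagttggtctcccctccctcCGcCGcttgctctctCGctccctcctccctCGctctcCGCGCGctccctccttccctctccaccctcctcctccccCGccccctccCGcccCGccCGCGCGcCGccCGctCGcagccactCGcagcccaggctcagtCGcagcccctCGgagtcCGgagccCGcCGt

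The GENCODE start window of FOXP2 held 37 CG dinucleotides at 67.7% GC, and 11.3% of 35116 RefSeq promoter windows of the same length held as many or more. The RefSeq start of FOXP2 held 1 CG at 38.7% GC, and 96.0% of the windows held as many. FOXP1 held 41 (6.69% of windows had as many) and FOXP4 27 (28.2%). The outer start of FOXP2 thus lay between those of FOXP1 and FOXP4 in CG, and the inner start shown was poor in CG. A second RefSeq start inside FOXP2 held 3 (81.8% of windows had as many). RefSeq starts inside FOXP1 varied, from 2 (89%) to 51 (1.01%), and the FOXP3 start held 10 (56.4%). These counts describe the letters in the windows, and which start was used in these cells was not measured.

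FOXP2 was the member that varied most. Over the 22 A673 clone and parental libraries, its level ranged from 0.0566 to 27.9 CPM (counts scaled to library size after TMM, CPM), a 492-fold range. FOXP1 ranged from 19.3 to 51.9 CPM (2.69-fold) and FOXP4 from 46.9 to 106 CPM (2.26-fold). FOXP3 had at most 0.474 CPM in any A673 clone library. Reads of all 4 genes came from bulk RNA, in which fewer expressing cells and less RNA per cell cannot be told apart.

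**Figure D1:**
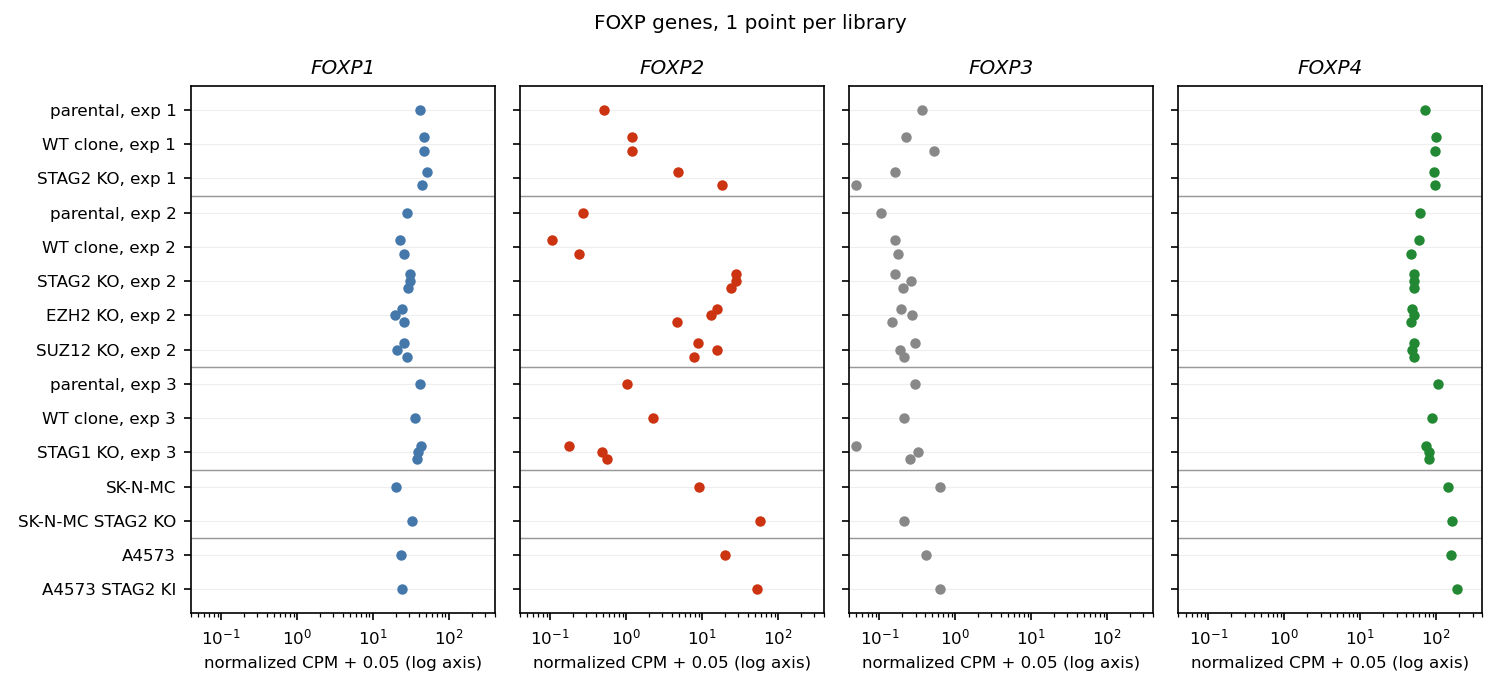
Each point is 1 library, with normalized CPM plus 0.05 on a log axis, and rows are the groups of each experiment and cell line. FOXP2 spans 0.0566 to 27.9 CPM in A673, while FOXP1 stays within 19.3 to 51.9 and FOXP4 within 46.9 to 106 CPM, and FOXP3 lies at the low end throughout.

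In the STAG2-proficient controls FOXP2 was low, and in those of experiment 2 it was close to the limit of detection. In experiment 1 it had 0.466 CPM in the parental line and 1.16 and 1.16 CPM in the WT clone (9, 20 and 22 reads). In experiment 2 it had 0.222 CPM in the parental line and 0.0566 and 0.191 CPM in the WT clone (4, 1 and 3 reads). In experiment 3 it had 0.970 CPM in the parental line and 2.22 CPM in the WT clone. The experiment 2 controls were thus the lowest, and a fold change against them rests on 8 reads in all.

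In STAG2 KO cells FOXP2 was high, which is the property it was chosen for. In experiment 1 it had 18.0 CPM in the library numbered 5 and 4.72 CPM in the library numbered 24. In experiment 2 the 3 STAG2 KO libraries had 27.9, 23.6 and 27.5 CPM (531, 453 and 499 reads). All 5 lay above all 6 controls. The log2 fold change (log2FC) was 5.45 with a standard error of 0.75, and it was 3.62 in experiment 1 and 7.39 in experiment 2 alone. The ratio of summed reads per sequenced read was 11.5 in experiment 1 (397 against 51 reads, exact 95% interval 8.60 to 15.8) and 188 in experiment 2 (1483 against 8 reads, 95.2 to 436). These intervals cover counting error only. The library numbered 24, the lower of the pair, also kept the most STAG2 RNA of the STAG2 KO clones, 183 CPM against 42.2 CPM in the library numbered 5 and 254.6 to 358.5 CPM in the A673 controls. Without that library the log2FC was 6.14, and the part of the remaining STAG2 RNA in the FOXP2 value was not tested.

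FOXP1 and FOXP4 differed little in the same libraries. FOXP1 had 42.1, 46.9 and 46.7 CPM in the controls of experiment 1 and 44.4 and 51.9 CPM in STAG2 KO, which overlap. In experiment 2 it had 22.8, 25.5 and 27.8 CPM in the controls and 30.5, 29.0 and 30.6 CPM in STAG2 KO, which do not. Its log2FC over both experiments was 0.22 (SE 0.10). FOXP4 had 71.5, 98.5 and 95.3 CPM in the controls and 97.6 and 94.0 CPM in STAG2 KO in experiment 1. In experiment 2 it had 58.5, 47.0 and 60.9 CPM in the controls and 50.4, 51.1 and 50.8 CPM in STAG2 KO, and its log2FC was 0.024 (SE 0.11). The FOXP4 groups overlapped in both experiments. In this contrast 12.4% of 13574 genes tested passed an adjusted p of 0.05, in either direction.

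FOXP2 was chosen from the STAG2 KO contrast and not from the PRC2 arms, but with earlier results of these data known. The PRC2 tests share controls with that contrast, so they are not independent of the choice. Knockout of EZH2 or SUZ12 gave the question whether the FOXP genes respond to loss of PRC2. The targeted RNAs were lower in these clones, with EZH2 at 28.3 to 54.9 CPM in EZH2 KO against 171 to 193 CPM in the controls, and SUZ12 at 11.3 to 20.5 CPM in SUZ12 KO against 59.9 to 66.6 CPM. FOXP2 rose in both. It had 15.5, 13.2 and 4.69 CPM in the 3 EZH2 KO libraries (323, 243 and 99 reads) and 8.87, 15.7 and 7.84 CPM in the 3 SUZ12 KO libraries (183, 349 and 146 reads). Every PRC2 KO library lay above every control, and the lowest of them, an EZH2 KO clone, was below the others. The means were 11.1 ± 5.68 CPM in EZH2 KO and 10.8 ± 4.29 CPM in SUZ12 KO (SD, n = 3 each) against 0.157 ± 0.0878 CPM in the controls (SD, n = 3). The log2FC was 6.18 (SE 0.59) in EZH2 KO with an adjusted p of 9.35e-05, and 6.13 (SE 0.59) in SUZ12 KO with an adjusted p of 7.67e-05 (edgeR quasi-likelihood test over 15130 genes). As ratios of summed reads these were 83.6 (665 against 8 reads, 95% interval 42.2 to 194) and 84.5 (678 against 8 reads, 42.6 to 196). The 3 controls are the same libraries as in the STAG2 KO contrast of experiment 2, so a low control value enters all 3 arms. With 1 to 4 reads in each control, FOXP2 passed the filter on low counts only through the KO libraries. The fit also held the STAG2 KO libraries of experiment 2, which FOXP2 was chosen from. With only the groups compared in the fit, the log2FC was 6.18 in EZH2 KO and 6.14 in SUZ12 KO (edgeR adjusted p = 0.000466 and 5.82e-05).

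FOXP1 and FOXP4 did not pass in either arm. FOXP1 had 24.1, 19.3 and 25.3 CPM in EZH2 KO and 25.3, 20.7 and 27.6 CPM in SUZ12 KO, overlapping the controls. FOXP4 had 47.8, 50.5 and 46.9 CPM in EZH2 KO and 51.5, 47.7 and 51.5 CPM in SUZ12 KO, again overlapping the controls. FOXP1 differed by a log2FC of -0.061 (SE 0.16) in EZH2 KO and 0.025 (SE 0.16) in SUZ12 KO, with edgeR adjusted p of 0.82 and 0.924. For FOXP4 the log2FC was -0.11 (SE 0.12) and -0.072 (SE 0.12), with edgeR adjusted p of 0.56 and 0.697. So 1 of 3 tested members passed in each comparison, where 15.7% of all genes tested were called in EZH2 KO and 20.6% in SUZ12 KO. FOXP3 did not pass the filter on low counts in any comparison.

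The members were then compared with each other within libraries, as the difference of log2 CPM between a pair of genes. Over the 6 PRC2 KO libraries the log2 ratio of FOXP2 to FOXP1 ran from -2.40 to -0.40, and over the 3 controls from -7.13 to -6.41. The mean difference was 5.44 (two-sided exact permutation test over 84 splits, p = 0.0238, the smallest this design allows, adjusted over 3 pairs 0.0357). For FOXP2 against FOXP4 the difference was 5.50 with the same exact permutation p. For FOXP4 against FOXP1 it was -0.061 (exact permutation p = 0.714). With any 1 of the 9 libraries left out, the differences stayed between 5.15 and 5.74 but neither FOXP2 pair passed, at adjusted p of 0.0536 to 0.107 (exact permutation test), since fewer splits remain. The ratios of FOXP2 to both paralogs did not overlap between KO and control libraries, while the ratio of FOXP4 to FOXP1 overlapped between KO and control libraries. Pooling the arms was needed for this, because 3 libraries against 3 cannot go below p = 0.1, and each arm alone gave an adjusted p of 0.15 with differences of 5.42 to 5.51 (exact permutation test).

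SUZ12 KO and EZH2 KO did not differ detectably in any member. The log2FC of SUZ12 KO against EZH2 KO was -0.058 (SE 0.41) for FOXP2, 0.086 (SE 0.16) for FOXP1 and 0.038 (SE 0.12) for FOXP4, each with an edgeR adjusted p of 0.999. None of the 3 passed, none had an unadjusted p under 0.05, and DESeq2 called 0. Only 0.00661% of the genes tested were called in this comparison. For FOXP2 the standard error was larger than the difference itself.

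**Figure D2:**
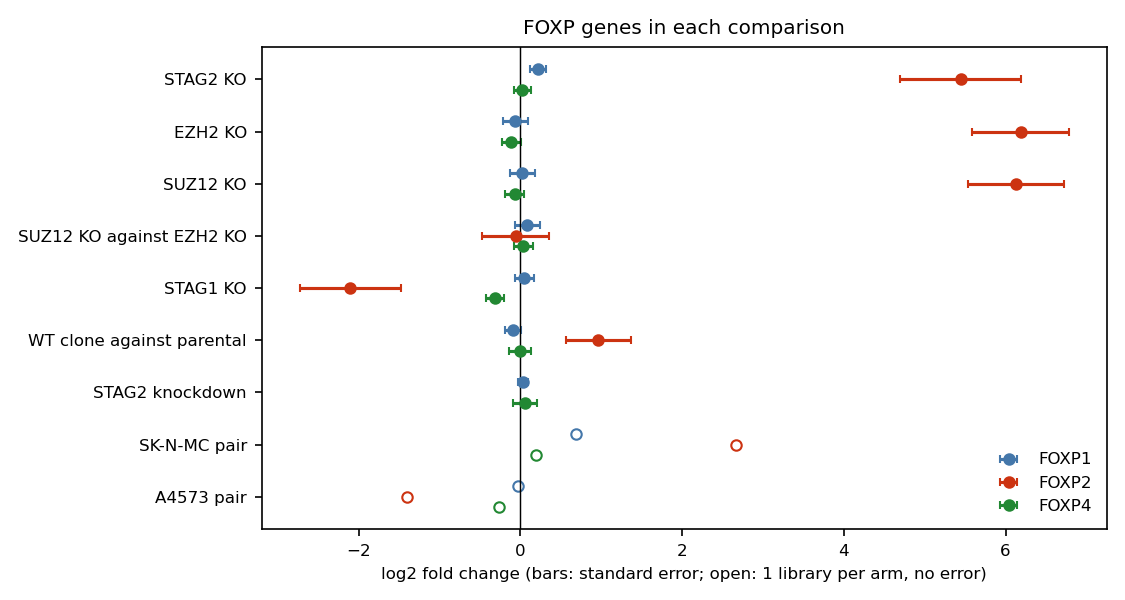
Log2 fold changes of FOXP1, FOXP2 and FOXP4 in each comparison, with bars for the standard error and open points for pairs with 1 library per arm. FOXP2 stands at 6.18 in EZH2 KO and 6.13 in SUZ12 KO with FOXP1 and FOXP4 near 0, and its STAG2 KO value of 5.45 is the contrast it was chosen from.

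In STAG1 KO the FOXP2 level was lower than in the controls, and the difference did not pass the test. FOXP2 had 0.126, 0.436 and 0.513 CPM in the 3 STAG1 KO libraries (2, 8 and 10 reads) against 0.970 and 2.22 CPM in the controls (20 and 41 reads). The groups did not overlap. The log2FC was -2.10 (SE 0.62, edgeR adjusted p = 0.107), and the ratio of summed reads was 0.232 (20 against 61 reads, 95% interval 0.133 to 0.390). FOXP4 had 72.1, 80.5 and 81.2 CPM against 106 and 87.0 CPM, again without overlap, with a log2FC of -0.31 (SE 0.11, edgeR adjusted p = 0.157). FOXP1 had 42.5, 39.4 and 37.7 CPM against 41.8 and 35.3 CPM, which overlap, and its log2FC was 0.046 (SE 0.12, edgeR adjusted p = 0.843).

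No member passed in STAG1 KO, where 5.27% of 14373 genes were called. By unadjusted p under 0.05, 2 of the 3 members were counted, and DESeq2 called 0. The library labelled STAG1 KO with column number 1 had STAG1 at 61.1 CPM, within the 57.4 to 69.1 CPM of the controls, against 15.0 and 33.0 CPM in the other STAG1 KO libraries. It also had the lowest FOXP2 of the 3. Without it the log2FC was -1.72 for FOXP2 (edgeR adjusted p = 0.112) and -0.25 for FOXP4 (edgeR adjusted p = 0.195). Over all 5 fits with 1 library left out, FOXP2 ranged from -2.59 to -1.39 with edgeR adjusted p of 0.112 to 0.491, the last without the WT clone library. The difference between the STAG2 KO and STAG1 KO effects was 7.52 (SE 1.20) on the log2 scale for FOXP2, 0.13 (SE 0.16) for FOXP1 and 0.29 (SE 0.19) for FOXP4, given without a test since STAG2 KO chose the gene.

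The WT clone, which the KO clones derive from, was compared with the parental line over 5 and 3 libraries. FOXP2 had a log2FC of 0.96 (SE 0.40, edgeR adjusted p = 0.276), being higher in the WT clone in experiments 1 and 3 and lower in experiment 2. For FOXP1 it was -0.092 (edgeR adjusted p = 0.695) and for FOXP4 -0.0090 (edgeR adjusted p = 0.985). None of the 3 members passed, 1 had an unadjusted p under 0.05, and DESeq2 called 0, where 2.72% of 14167 genes were called (1.76% higher and 0.96% lower).

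The siRNA experiment compared cells with lowered STAG2 RNA, and there FOXP2 stayed at the limit of detection. It had 3, 2 and 1 reads in siC and 3, 2 and 6 reads in siSTAG2, which overlap. The ratio was 1.80 (11 against 6 reads, 95% interval 0.611 to 5.93), and the difference of log2(value + 1) was 0.61 (exact permutation p = 0.3, smallest possible 0.1). STAG2 itself was at 144 to 180 normalized reads in siSTAG2 against 992 to 1090 in siC.

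FOXP1 had 787, 800.1 and 769 normalized reads in siC and 799, 803 and 807 in siSTAG2, which overlap. FOXP4 had 107, 80.7 and 109 in siC and 113, 94.6 and 99.5 in siSTAG2, which overlap as well. By limma the log2FC was 0.032 for FOXP1 (adjusted p = 0.785) and 0.058 for FOXP4 (adjusted p = 0.831). Neither of the 2 members tested passed, none had an unadjusted p under 0.05, and edgeR on recovered reads called 0, where 20.5% of 12060 genes were called by limma. FOXP3 had 1, 4 and 4 reads in siC and 1, 1 and 0 in siSTAG2, a difference of -1.21 on the log2(value + 1) scale (exact permutation p = 0.2).

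In the isogenic pairs FOXP2 was present in every library and moved in opposite directions. In SK-N-MC it had 9.04 CPM with STAG2 and 57.6 CPM in STAG2 KO, a ratio of reads of 6.37 (exact 95% interval 5.63 to 7.23, counting error only). In A4573 it had 19.8 CPM without STAG2 and 52.2 CPM after restoration, so the cells without STAG2 had 0.357 times the level (0.325 to 0.393). On the log2 scale, without minus with STAG2, the differences were 2.66 and -1.40. With 1 library per arm there is no replicate check, and past 1 on the log2 scale 10.2% of genes were higher and 11.4% lower in SK-N-MC (21.6% in all), and 7.76% higher and 14.1% lower in A4573 (21.8% in all). STAG2 RNA was at 292.8 CPM in SK-N-MC and 184.2 CPM in its STAG2 KO, and it was 34.1 CPM in A4573 and 86.9 CPM in A4573 STAG2 KI. EZH2 also differed within the A4573 pair, at 119.8 CPM without STAG2 and 42.8 CPM in STAG2 KI, and its part in the FOXP2 difference was not tested.

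FOXP1 and FOXP4 differed less in these pairs. FOXP1 had 20.2 CPM in SK-N-MC and 32.6 CPM in its STAG2 KO (log2 difference 0.69), and 23.5 and 24.1 CPM in A4573 without and with STAG2 (-0.032). FOXP4 had 142 and 162 CPM in the SK-N-MC pair (0.19) and 158 and 189 CPM in the A4573 pair (-0.26). None of these 4 differences passed 1 on the log2 scale. FOXP3 had 19 reads in SK-N-MC and 5 in its STAG2 KO (log2 difference -1.49, ratio 0.284, exact 95% interval 0.0830 to 0.787), and 11 and 18 reads in A4573 without and with STAG2 (-0.57, ratio 0.602, 0.257 to 1.35). Both FOXP3 differences were negative, and the A4573 interval includes 1.

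Levels of different genes were compared per kilobase of exon, as normalized CPM per kb of the gene's joined exons. Over the A673 clone and parental libraries FOXP4 was the highest member in every group, from 5.80 to 13.1 CPM per kb. It made up 71.0% to 89.8% of the summed FOXP level in the groups by experiment. This share depended on the length used, and per kb of the longest transcript it was 53.3% to 74.0%. The knockdown libraries, not placed on this scale, had more FOXP1 (769 to 807 normalized reads) than FOXP4 (80.7 to 113). The cause of this difference was not tested. FOXP1, at 0.589 to 1.58 CPM per kb, came next in every clone and parental group except STAG2 KO of experiment 2. FOXP2 took 0.123% of the sum in the experiment 2 controls, 9.06% in EZH2 KO, 8.50% in SUZ12 KO and 18.0% in STAG2 KO of experiment 2. Among the neighbours in this order, FOXP1 and FOXP2 overlapped in EZH2 KO and SUZ12 KO. Per kb of the longest transcript they did not overlap. FOXP1 was there at least 2.69 CPM per kb in EZH2 KO and 2.89 in SUZ12 KO, and FOXP2 at most 1.86 and 1.90. In STAG2 KO of experiment 2, FOXP2 (1.43 to 1.69 CPM per kb) lay above FOXP1 (0.884 to 0.932 CPM per kb). This order depended on the length used. Per kb of the longest transcript, 8301 bases for FOXP2 and 7177 for FOXP1 in place of joined exons of 16537 and 32800 bases, FOXP2 lay below FOXP1 in those libraries. In SK-N-MC STAG2 KO and A4573 STAG2 KI, FOXP2 was above FOXP1 by both lengths.

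**Figure D3:**
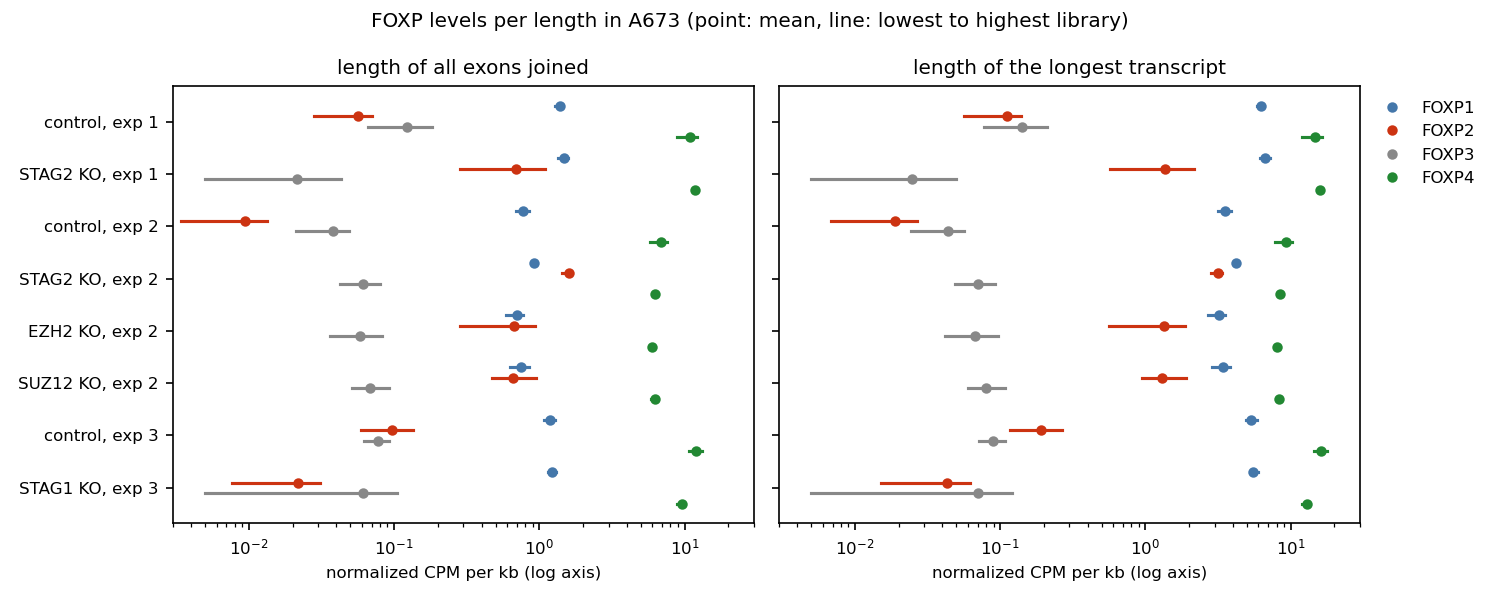
Normalized CPM per kb on a log axis for the A673 groups of the clone experiments. The scales are per length of all exons joined (left) and of the longest transcript (right). Points are means, and lines run from the lowest to the highest library. A library at 0 is drawn at 0.005, FOXP4 is the highest in each group on both scales, and FOXP2 in STAG2 KO of experiment 2 is above FOXP1 on the left and below it on the right.

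FOXP3 was at the limit of counting everywhere. It had 0 to 9 reads in the 22 A673 clone libraries and 5 to 19 reads in the isogenic ones, where 3 reads correspond to 0.093 to 0.438 CPM depending on the library. In STAG2 KO of experiment 1 it had 0 and 2 reads against 6, 3 and 9 in the controls, and in experiment 2 it had 2, 4 and 3 reads against 1, 2 and 2. The ratio of summed reads was 0.165 in experiment 1 (95% interval 0.0185 to 0.688) and 1.83 in experiment 2 (0.549 to 6.93), so the experiments pointed in opposite directions at a few reads each. FOXP3 overlaps CCDC22 on the other strand, and by the described protocol the libraries keep no strand, so these reads cannot be told apart from that gene's. The markers of T cells, where FOXP3 is known from, were at or near 0, with CD2 and IL2RA at 0 in the 26 libraries counted by symbol, CD3D at most 0.161 CPM and CD3E at most 0.0513 CPM. CD4 was higher, with a median of 0.191 CPM and at most 1.74 CPM. PTPRC was the main exception, at 58.2 CPM in SK-N-MC STAG2 KO, so the summed level of the 7 markers ran from 0.0525 to 59.9 CPM. The Ewing sarcoma markers NKX2-2, NR0B1, STEAP1, PRKCB and CCND1 were present in all 26 libraries, and CD99 was listed at 0 in all of them. In the knockdown libraries CD99 was measured and fell by 0.75 on the log2 scale (limma adjusted p = 1.99e-10). The 0 therefore does not show that A673 cells lack CD99. Of these markers NKX2-2 rose by 1.74 and 2.03 and PRKCB by 1.19 and 1.48 on the log2 scale in EZH2 KO and SUZ12 KO. In EZH2 KO 2 of 5 were called higher and 0 lower, against 12% and 3.69% of all genes. In SUZ12 KO it was also 2 and 0, against 14.7% and 5.87%. In STAG2 KO 1 of 5 was called higher and 2 lower, against 6.67% and 5.76%. In the knockdown 1 of 6 was called higher and 4 lower, against 9.54% and 11.0%.

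FOXP4-AS1, an antisense gene next to FOXP4, was the only FOXP-named RNA gene that passed the filter. Its log2FC was -1.09 (SE 0.42) in STAG1 KO with an edgeR adjusted p of 0.18, in the direction of FOXP4. In EZH2 KO and SUZ12 KO it was -0.27 and -0.042, with edgeR adjusted p of 0.756 and 0.96. Without strand, reads in the overlap of FOXP4 and FOXP4-AS1 cannot be assigned to either.

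Genes that encode known partners of FOXP proteins were counted from a list of 23. In EZH2 KO 2 of the 21 tested rose and 4 fell, against 12% and 3.69% of all genes tested. The list median was -0.17 on the log2 scale, against 0.037 for all genes. In SUZ12 KO 2 rose and 3 fell, against 14.7% and 5.87%, with a median of -0.12 against 0.0088. The genes with the largest changes were the same by name in both: SATB1, a chromatin organizer, and RUNX1, a transcription factor of blood cells, rose, and NR2F2, a nuclear receptor, fell.

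SATB1 had 0.510 to 0.776 CPM in the controls, 11.2 to 18.0 CPM in EZH2 KO and 10.1 to 17.6 CPM in SUZ12 KO. Its log2FC was 4.63 and 4.65 (SE 0.46 each, edgeR adjusted p = 0.000112 and 8.71e-05), and it passed with each library left out. RUNX1 had 1 read in each control, 18 to 38 reads in EZH2 KO and 10 to 41 in SUZ12 KO. With so few control reads, RUNX1 passed the filter on low counts only through the KO libraries. RUNX1 passed the test in 3 of 6 EZH2 KO and 4 of 6 SUZ12 KO fits with 1 library left out. Its ratios of summed reads were 26.8 (exact 95% interval 8.85 to 133) and 22.6 (7.41 to 112). NR2F2 fell by 0.82 and 0.91 on the log2 scale. SATB1 and RUNX1 thus rose from near the detection limit, as FOXP2 did, while NR2F2 fell from a measured level.

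In STAG2 KO 2 of 20 partners were called higher and 0 lower, where 6.67% and 5.76% of all genes were. CTBP2, a corepressor, had a log2FC of 0.43 (SE 0.12) and was called in only 1 of 11 fits with 1 library left out. NR2F1, a nuclear receptor, had a log2FC of 3.44 (SE 0.52) and was called in 11 of 11. NR2F1 had 19.1 to 45.1 CPM in the 5 STAG2 KO libraries and 1.11 to 6.82 CPM in the 6 controls, without overlap. In EZH2 KO and SUZ12 KO it had 2.84 to 4.40 and 1.98 to 4.99 CPM, within the range of those controls. In the knockdown it rose by 1.17 (SE 0.20, limma adjusted p = 0.00012). There 4 of 19 partners were called higher and 0 lower, where 9.54% and 11.0% of all genes were. In STAG1 KO, NFATC2 rose by 2.51 and HDAC2 by 0.47, and NR2F2 fell by 1.04 on the log2 scale (3 of 20 partners, where 2.77% of all genes were called higher and 2.5% lower). Without either control no gene passed in STAG1 KO by edgeR, with 1668 and 2206 genes at an unadjusted p under 0.05. In the WT clone against the parental line 0 of 20 passed by edgeR, with 5 at an unadjusted p under 0.05 and 1 called by DESeq2.

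The list of 9 genes known as FOXP2 targets had 7 members tested, and at most 2 were called in any comparison. In EZH2 KO, VLDLR, a reelin receptor, rose by 1.90 (SE 0.56, edgeR adjusted p = 0.0409) and MET, the hepatocyte growth factor receptor, fell by 1.65 on the log2 scale (SE 0.44, edgeR adjusted p = 0.0258). In SUZ12 KO only CNTNAP2, a neurexin family adhesion protein, passed, with a log2FC of 1.27 (SE 0.35, edgeR adjusted p = 0.0244). In STAG2 KO 0 of 7 were called by edgeR, 0 had an unadjusted p under 0.05 and DESeq2 called 0. The list median there was -0.16 against 0.041 for all genes.

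VLDLR and MET each passed in only 2 of 6 EZH2 KO fits with 1 library left out, and CNTNAP2 in 1 of 6 SUZ12 KO fits. SRPX2, a secreted ligand of the urokinase receptor, rose by 2.01 in STAG1 KO (SE 0.35, edgeR adjusted p = 0.0366), 1 of 7 targets called, but passed in 1 of 5 fits with 1 library left out. It also rose by 1.93 in the WT clone against the parental line (SE 0.30, edgeR adjusted p = 0.0114), where CNTNAP2 rose by 0.41 (SE 0.084, edgeR adjusted p = 0.0369). In the knockdown SRPX2 rose by 0.79 and CNTNAP2 by 0.52, with limma adjusted p of 0.0196 and 0.000228, 2 of 5 targets tested, and SRPX2 passed in only 2 of 6 fits with 1 library left out.

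The protein-coding genes within 2 Mb of FOXP2 did not move as a block with it. Of 15 neighbours tested, 1 rose and 3 fell in EZH2 KO, against 12% and 3.69% of all genes. In SUZ12 KO 2 rose and 2 fell, against 14.7% and 5.87%. Their median log2FC was -0.036 and -0.069, against 0.037 and 0.0088 for all genes. IFRD1, a transcriptional coregulator, fell by 1.30 and 1.33 on the log2 scale, and CAV1, the main protein of caveolae, fell by 0.99 and 1.15. In STAG2 KO 2 of 13 were called higher and 1 lower, against 6.67% and 5.76% of all genes, with DOCK4 at 1.12, CAV2 at -1.05 and TES at 0.37, the last pair called in only 2 of 11 fits with 1 library left out. In the knockdown 2 of 12 rose and 3 fell, against 9.54% and 11.0% of all genes, led by TFEC at 0.88, IFRD1 at 0.53 and MDFIC at -0.51.

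The exception was PPP1R3A, a glycogen-targeting subunit of protein phosphatase that is known from muscle and is the nearest neighbour, 10.4 kb from the FOXP2 gene body. It had 0 reads in each of the 3 controls of experiment 2, 11, 8 and 2 reads in EZH2 KO and 3, 28 and 7 reads in SUZ12 KO. Every PRC2 KO library was above the controls, at few reads. Against an assumed 3 reads over the control group, the summed 21 reads in EZH2 KO and 38 in SUZ12 KO give ratios of 7.04 and 12.6. These ratios leave out the counting error of the KO reads. With 0 control reads PPP1R3A passed the filter on low counts only through the KO libraries. It passed the edgeR test in SUZ12 KO (adjusted p = 0.0238) and not in EZH2 KO (adjusted p = 0.0569), and with 1 library left out it passed in 2 of 6 SUZ12 KO fits. In STAG2 KO it had 13, 11 and 50 reads in experiment 2 and 19 and 2 in experiment 1, where the controls had 0, 0 and 1. In STAG1 KO it had 0, 0 and 4 reads against 2 and 3 in the controls.

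Around FOXP1, which did not pass, several neighbours rose in the PRC2 knockouts. Of 14 tested, 3 rose and 0 fell in EZH2 KO, where 12% of all genes rose and 3.69% fell. In SUZ12 KO 5 rose and 1 fell, where 14.7% and 5.87% of all genes did. Their median log2FC was 0.31 and 0.34, against 0.037 and 0.0088 for all genes. FRMD4B, a scaffold protein, had 1, 0 and 0 reads in the controls of experiment 2, 28, 43 and 74 reads in EZH2 KO and 85, 82 and 59 reads in SUZ12 KO. MITF, the melanocyte transcription factor, rose by 3.55 (SE 0.47) and 3.81 (SE 0.47), with edgeR adjusted p of 0.000683 and 0.000312. EIF4E3, a cap-binding protein 91.4 kb from FOXP1, rose by 2.19 (SE 0.33) and 2.56 (SE 0.33), with edgeR adjusted p of 0.00137 and 0.000434. FRMD4B, MITF and EIF4E3 passed in both arms with each library left out. FRMD4B and MITF had 1 and 8 summed control reads, so they passed the filter on low counts only through the KO libraries. In STAG2 KO 3 of 12 were called higher and 0 lower, against 6.67% and 5.76% of all genes, with PROK2 at 2.31, EIF4E3 at 1.80 and EOGT at 0.77. With 1 library left out EIF4E3 was called in 11 of 11 fits, PROK2 in 4 and EOGT in 1. In STAG1 KO 1 of 12, GPR27, was called, in the lower direction.

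**Figure D4:**
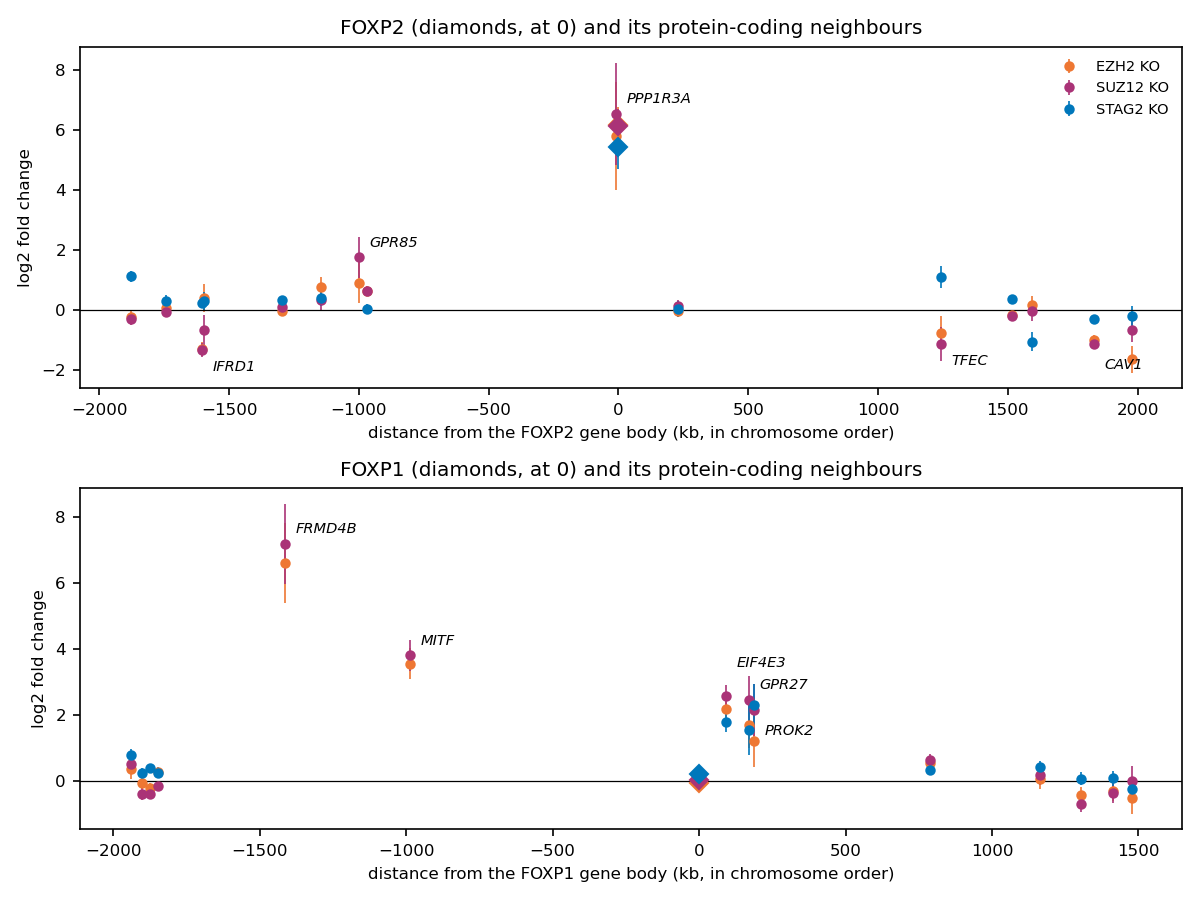
Log2 fold changes in EZH2 KO, SUZ12 KO and STAG2 KO of the protein-coding genes near FOXP2 (top) and FOXP1 (bottom) against distance from the gene body in kb, with bars for the standard error and the FOXP gene as a diamond at 0. PPP1R3A, at 10.4 kb, is the only neighbour of FOXP2 with a change near its size, while FOXP1 stays near 0 with EIF4E3, MITF and FRMD4B raised around it.

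The genes most like FOXP2 over the 22 A673 libraries were found by Pearson correlation of log2 CPM, from which each experiment's control mean was taken off, over 11038 genes averaging 5 CPM or more. They were ITSN2 (0.95), an endocytic scaffold, PRKAR2B (0.95), a regulatory subunit of protein kinase A, LRRC4B (0.93), a synaptic adhesion protein, EIF4E3 (0.93) and AK4 (0.93), a mitochondrial adenylate kinase. The most opposite were GANAB (-0.96), a glucosidase of the endoplasmic reticulum, MYOF (-0.94), a membrane repair protein, and CDH24 (-0.93), a cadherin. The libraries share experiments, controls and the clones' KO, so the values describe the pattern and carry no p. FOXP1 and FOXP4 were not like FOXP2, with correlations of 0.028 and 0.0071, nor like each other (0.17).

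The like genes differed in size from FOXP2. PRKAR2B had 5.29 to 15.2 CPM in the 8 controls (median 11.0), 24.5 to 38.9 CPM in the 5 STAG2 KO libraries, 15.4 to 16.4 CPM in EZH2 KO and 16.9 to 17.9 CPM in SUZ12 KO. ITSN2 had 22.5 to 43.3 CPM in the controls and 49.7 to 59.8, 45.0 to 51.3 and 44.3 to 50.7 CPM in the same KO groups. MYOF ran the other way, from 14.6 to 80.3 CPM in the controls to 0.574 to 5.58 CPM in STAG2 KO, 2.88 to 8.52 CPM in EZH2 KO and 2.70 to 5.29 CPM in SUZ12 KO. For these 3 genes the STAG2 KO, EZH2 KO and SUZ12 KO groups did not overlap the controls, nor did they for EIF4E3, CDH24 and GANAB. STAG2 KO did overlap them for LRRC4B (28.7 to 80.5 against 2.17 to 30.7 CPM) and AK4 (26.8 to 76.7 against 6.89 to 44.2 CPM). All were picked by correlation over these same libraries, so the separation is a description only. In STAG1 KO ITSN2 (30.8 to 41.1 CPM) and PRKAR2B (4.48 to 12.1 CPM) were not above the controls. The genes most like FOXP1 were ALKBH8 (0.86), ZNF260 (0.86) and PGGT1B (0.86), and those most like FOXP4 were DPH1 (0.88), ANKS3 (0.83) and CUEDC1 (0.83), none of them shared with FOXP2.

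**Figure D5:**
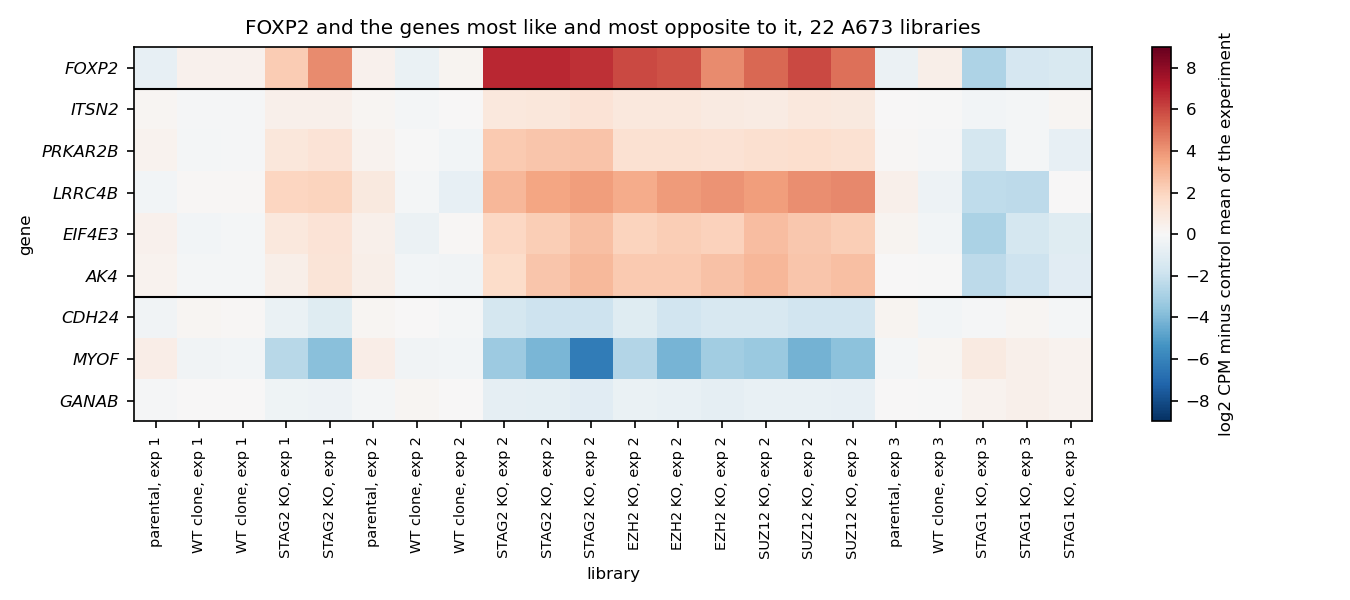
Heat map of log2 CPM minus the control mean of the experiment for FOXP2 (top row), the 5 genes most like it and the 3 most opposite, with 1 column for each of the 22 A673 libraries. FOXP2 and the like genes are raised in STAG2 KO, EZH2 KO and SUZ12 KO columns and the opposite genes are lowered.

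Repeats of the motif GGAA, which the Ewing sarcoma fusion EWS::FLI1 is known to bind, were searched on both strands as runs of at least 5 motifs with gaps of at most 5 bases. The run nearest to the start of FOXP2 lay 169.2 kb away, and 80.9% of 19970 protein-coding genes had one as near or nearer. For FOXP1 15.1% of genes had one as near or nearer, for FOXP4 55.8% and for FOXP3 72.7%. A run is a match of letters, and binding was not measured.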

How the data were processed

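The paper's methods describe non-directional oligo-dT libraries. The names of the knockdown libraries hold the tag FWD, whose meaning is not given, so whether they followed the same protocol was not known. By the submitters' processing notes, the authors used TopHat2 version 2.0.0 on hg38, with SAMtools (version 0.1.16) and Bowtie (version 0.12.7). The tables deposited for the clones and isogenic pairs held raw read counts, 1 row per gene symbol. The table deposited for the knockdown held a normalized signal, read counts that the authors divided by 1 factor per library, listed by Ensembl gene (56104 of 60199 with a symbol). The counting tool and annotation are not given in the sources used here. Whole reads were recovered from 100% of the knockdown values (tolerance 0.001). Totals were 15734628 to 20663679 counts in the clones, 29322507 to 32261248 in the isogenic libraries and 6852340 to 8184632 recovered reads in the knockdown. Every sample column was used (0 left out), and libraries were grouped by their labels.

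Counts were tested in R 4.3.3 with edgeR 4.0.16 (TMM, filterByExpr, quasi-likelihood), with the experiment as a term for STAG2 KO and WT clone against parental, and all 12 libraries of experiment 2 in 1 fit for EZH2 KO and SUZ12 KO. The knockdown was tested with limma 3.58.1 on log2(value + 1) for genes with a mean of at least 10, and edgeR on its recovered reads was an alternative that called 2503 genes against 2476. The threshold was 0.05 on p-values adjusted over all genes by Benjamini and Hochberg. Isogenic pairs used a prior count of 2 and genes with at least 10 counts. DESeq2 1.42.0 was an alternative. Permutation tests used scipy 1.17.1 in Python 3.11.15. Counting intervals are exact binomial at 95% and cover counting error only, since the reads carry no molecular identifiers. Fits were tested on simulated data. Named genes were the 4 members, the called genes with the 3 largest changes in each list or neighbourhood, and the genes most like the members, with PPP1R3A in EZH2 KO and NR2F1 in the PRC2 knockouts added after their values were seen. The members and lists were chosen with earlier results of these data known.

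The numbers shared by the knockdown arms and by the PRC2 KO arms were checked as pairs. Deviations of same-numbered libraries correlated at 0.004 to 0.037 in the knockdown and at -0.14, 0.38 and 0.34 between SUZ12 KO and EZH2 KO, so they were not treated as pairs. The pair of WT clone libraries of experiment 1 differed by a mean chi-square of 1.33 per gene, against 9.41 to 140.2 in other pairs of a group, and were kept as 2 libraries. Promoter windows came from RefSeq on GRCh38, and other gene models from GENCODE 44.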

Additional observations from a re-analysis of the deposited data

Results flagged for a closer look

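In the isogenic pairs, the differences of 3 FOXP genes between cells without and with STAG2 had opposite signs in the cell lines, and only those of FOXP2 passed 1 on the log2 scale in either direction. FOXP2 differed by 2.66 on the log2 scale in SK-N-MC and by -1.40 in A4573. FOXP1 differed by 0.69 and -0.032, where the counting interval of the A4573 ratio, 0.833 to 1.02, includes 1, and FOXP4 by 0.19 and -0.26. Each arm had 1 library, and the difference between the lines was not tested. STAG2 was removed in SK-N-MC and restored in A4573, so the cell line and the direction of editing cannot be told apart.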

How the results depend on the processing

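FOXP2 in EZH2 KO and SUZ12 KO passed under every alternative run, with a log2FC of 5.76 to 6.55 and 5.71 to 6.47 when 1 library was left out. FOXP2 in STAG2 KO was 3.62 in experiment 1 and 7.39 in experiment 2 alone, and the cause was not tested. Of 384 alternatives, 304 kept direction and side of the threshold. Depth limits FOXP2 in controls and FOXP3 throughout.

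Genes called in STAG2 KO numbered 3663 in experiment 1 and 494 in experiment 2 alone. With WT clone controls only, EZH2 KO called 1441. SUZ12 KO against EZH2 KO called 5 with no filter, 20 with DESeq2 and 0 with only the groups compared in the fit. STAG1 KO called 1914 with DESeq2, and WT clone against parental 741 with no filter and 630 with DESeq2. FOXP4 in A4573 was -0.34 with library size only. The paralog differences in EZH2 KO alone (5.46 and 5.50) and SUZ12 KO alone (5.42 and 5.51) could not pass with 3 libraries against 3. Per kb of longest transcript, the log2 ratio of FOXP2 to FOXP1 was -5.70 in controls, -0.40 in STAG2 KO of experiment 2 (reversed), -1.25 in EZH2 KO, -1.39 in SUZ12 KO and -7.01 in STAG1 KO, by the change of length.

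With the replicate block, SUZ12 KO against EZH2 KO called 0 genes and FOXP2 turned to 0.045, the knockdown called 2881 genes, and no member's call changed. These libraries share only a number.

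Leaving out 1 library gave 1053 to 4048 called genes in STAG2 KO (fewest without a WT clone library, most without the STAG2 KO library numbered 5 of experiment 2), 1169 to 1760 in EZH2 KO, 1874 to 3238 in SUZ12 KO, 1 to 2 in SUZ12 KO against EZH2 KO, 0 to 1310 in STAG1 KO (0 without either control, 1310 without the library numbered 1) and 98 to 953 in WT clone against parental. FOXP1 ranged from -0.16 to 0.037 in EZH2 KO, -0.089 to 0.13 in SUZ12 KO, -0.015 to 0.20 between them and -0.063 to 0.16 in STAG1 KO. FOXP2 between SUZ12 KO and EZH2 KO ranged from -0.43 to 0.25, and FOXP4 from -0.24 to 0.13 in WT clone against parental and -0.081 to 0.14 in the knockdown. The paralog differences ranged from 5.20 to 5.68 (FOXP2 to FOXP1), 5.15 to 5.74 (FOXP2 to FOXP4) and -0.18 to 0.056 (FOXP4 to FOXP1). Both FOXP2 calls were lost in 9 of 9 such fits (exact permutation, adjusted p 0.0536 to 0.107). In each, both FOXP2 pairs had the smallest p that the remaining splits allow, 0.0357 or 0.0714. The lost calls thus reflect the number of splits and are no check of the differences.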
